A study of Mus musculus with 11 samples.

Results

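The genes described here are the Vps (vacuolar protein sorting) proteins and sorting nexins (Snx) of the mouse, 65 genes out of 55421 in the count tables, chosen by a gene symbol that begins with Vps or Snx and a digit. Of these, 35 are Vps genes and 30 are Snx genes. RNA was measured in 11 libraries of ribosome-bound RNA from whole cerebellum taken on postnatal day 56. The 4 KO libraries came from mice of genotype Pcp2Cre;Tie2flox/flox;Rpl22HA/HA and the 7 WT libraries from mice of genotype Pcp2Cre;Rpl22HA/HA, so that both groups carry the Cre and the tagged ribosomal protein and differ by label only in the floxed Tie2 alleles. The Pcp2 promoter drives Cre in Purkinje cells, the output neurons of the cerebellar cortex, where Cre switches on the HA tag on ribosomes and, in KO mice, acts on the gene of the angiopoietin receptor Tie2. Tagged ribosomes are then collected with an antibody, and their RNA is sequenced. Names of libraries here join the group and the animal's tag, and the labels put KO F371, KO M374 and WT M379 in batch 1, KO M390 and WT M386 in batch 2, and KO M456 with the other 5 WT libraries in batch 3.

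Vps genes were named for yeast mutants that fail to deliver proteins to the vacuole, the yeast lysosome, and most mammalian Vps proteins are subunits of complexes on endosomes. Retromer and retriever lift receptors out of endosomes for reuse, the ESCRT machinery (endosomal sorting complexes required for transport) packs ubiquitinated receptors into multivesicular bodies for breakdown, and the tethers CORVET and HOPS bring early endosomes, late endosomes and lysosomes together. Sorting nexins carry a PX domain that binds phosphoinositides of the endosomal membrane, and many also bend the membrane or hold cargo. Neurons depend on these routes to recycle synaptic and growth factor receptors, and recessive human mutations in several of the genes, SNX14 among them, cause ataxia with loss of cerebellar tissue.

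The promoters of all the genes that had one in the reference table were searched for a sequence feature tied to lysosomes, the CLEAR element bound by the transcription factor TFEB, whose core holds the letters CACGTG and whose extended palindrome holds TCACGTGA. Each window ran from 250 bases before to 50 after an annotated start in the RefSeq table of GRCm38.p6, and 43 of the 65 genes had 53 windows in it. CACGTG, which reads the same on both strands, was found in 8 of 53 windows (15.1%), against 2349 of 32851 windows of all genes (7.15%), and TCACGTGA, which contains it, in 4 of 53 (7.55%), against 320 of 32851 (0.974%). Counted by gene, the shares were 7 of 43 genes (16.3%) against 8.09% of all genes for CACGTG, and 3 of 43 (6.98%) against 1.12% for TCACGTGA. Windows of 1 gene can overlap, no test was run, and a match is a description of letters, not of binding. The 3 genes with the longer palindrome are shown here with Snx18, the only gene called different in KO whose window holds CACGTG, of 10 called genes that had a window. Capitals mark the palindromes, and positions count from the annotated start to the first letter of CACGTG.
Vps16, a shared subunit of HOPS and CORVET (chr2:130424070-130424369, plus strand, core from position -18): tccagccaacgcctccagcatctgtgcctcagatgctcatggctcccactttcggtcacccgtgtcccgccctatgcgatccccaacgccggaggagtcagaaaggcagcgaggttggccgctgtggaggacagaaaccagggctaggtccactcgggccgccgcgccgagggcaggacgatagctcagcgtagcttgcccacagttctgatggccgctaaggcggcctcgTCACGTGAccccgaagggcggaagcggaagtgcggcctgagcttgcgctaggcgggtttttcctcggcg
Vps33a, the partner that binds Vps16 (chr5:123572966-123573265, minus strand, cores from positions -28 and -12): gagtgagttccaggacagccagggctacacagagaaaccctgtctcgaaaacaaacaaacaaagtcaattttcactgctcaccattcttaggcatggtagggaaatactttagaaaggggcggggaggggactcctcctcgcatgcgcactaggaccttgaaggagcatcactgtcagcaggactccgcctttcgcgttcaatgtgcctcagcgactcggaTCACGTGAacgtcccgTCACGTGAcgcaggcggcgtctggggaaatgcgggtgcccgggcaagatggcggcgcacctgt
Vps26a, a retromer subunit (chr10:62486756-62487055, minus strand, cores from positions -182 and 33): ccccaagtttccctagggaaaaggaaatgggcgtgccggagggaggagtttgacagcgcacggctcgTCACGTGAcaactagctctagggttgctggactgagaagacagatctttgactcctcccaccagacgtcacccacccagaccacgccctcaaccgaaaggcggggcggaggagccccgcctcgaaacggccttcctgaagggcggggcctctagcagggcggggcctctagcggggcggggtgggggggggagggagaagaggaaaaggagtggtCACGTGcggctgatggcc
Snx18, a sorting nexin with an SH3 domain (chr13:113618515-113618814, minus strand, core from position -186): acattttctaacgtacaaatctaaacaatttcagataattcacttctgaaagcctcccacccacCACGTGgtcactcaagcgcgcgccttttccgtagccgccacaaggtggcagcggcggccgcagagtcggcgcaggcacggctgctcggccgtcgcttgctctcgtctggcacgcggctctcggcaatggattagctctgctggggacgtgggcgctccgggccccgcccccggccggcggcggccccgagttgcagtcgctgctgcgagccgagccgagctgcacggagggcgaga
A second, overlapping Vps26a window held a further TCACGTGA. None of the 3 genes with TCACGTGA passed the test between KO and WT given below.

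Depth was 2583227 to 4199299 reads in genes in KO libraries and 4087197 to 5142671 in WT libraries, so depth moved with genotype. Tek, which encodes Tie2, had 0 to 14 reads per KO library and 0 to 40 per WT library, with a log2 fold change of 0.87 ± 0.95 (SE, edgeR adjusted p = 0.53), and could not check the labels. Defining genes of Purkinje cells were present in every library. The summed level of 18 such genes was 6984 to 9526 CPM (read counts scaled to library size with TMM factors) in KO libraries and 7157 to 8376 CPM in WT libraries. Markers of other cell types were also present. The 13 granule cell markers summed to 616 to 1763 CPM in KO and 480 to 945 CPM in WT libraries, 12 astrocyte and Bergmann glia markers to 915 to 1740 CPM in KO and 833 to 1066 CPM in WT, and 13 oligodendrocyte markers to 327 to 1001 CPM in KO and 286 to 735 CPM in WT. Of the tested members of these 3 lists, 8 of 13, 7 of 12 and 3 of 12 were higher in KO and 0 lower (edgeR adjusted p under 0.05). Among Purkinje cell markers 5 of 18 were higher and 1 lower. The sums were 25.2 to 130 CPM in KO and 37.4 to 69.4 CPM in WT for 10 microglia markers, 31.6 to 139 CPM in KO and 22.2 to 152 CPM in WT for 10 endothelial and mural markers, and 123 to 264 CPM in KO and 77.1 to 125 CPM in WT for 9 interneuron and unipolar brush cell markers. In these lists 2 of 9 tested microglia markers, 1 of 9 endothelial and mural markers and 4 of 8 interneuron and unipolar brush cell markers were higher in KO and 0 lower. By the same test, 10.8% of all 13375 genes tested were higher in KO and 13.4% lower. No marker of any list was at 0 in all libraries.

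Of the 65 genes, 61 passed the filter on low counts and were tested. In KO libraries 6 genes were higher and 14 lower at an adjusted p under 0.05 (edgeR's quasi-likelihood fit of genotype and batch, Benjamini-Hochberg adjustment over all genes). The 6 higher genes, 9.84% of those tested, stand against 10.8% of all 13375 genes tested, and the 14 lower genes, 23.0%, against 13.4%. In either direction the share was 32.8% against 24.2%. The median log2 change was -0.14 over the 61 genes and -0.02 over all genes tested. It was -0.25 over the 34 tested Vps genes, of which 3 were higher and 9 lower, and -0.04 over the 27 tested Snx genes, of which 3 were higher and 5 lower. In 5 genes every KO library lay above every WT library (6.2% of all genes tested did so) and in 6 genes every KO library lay below (6.77% of all genes). In pulled-down RNA of whole tissue, fewer cells of a type and less RNA per cell cannot be told apart. Below, a log2 fold change is KO over WT ± its SE, and a bare number in brackets after it is its edgeR adjusted p.

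**Figure D1:**
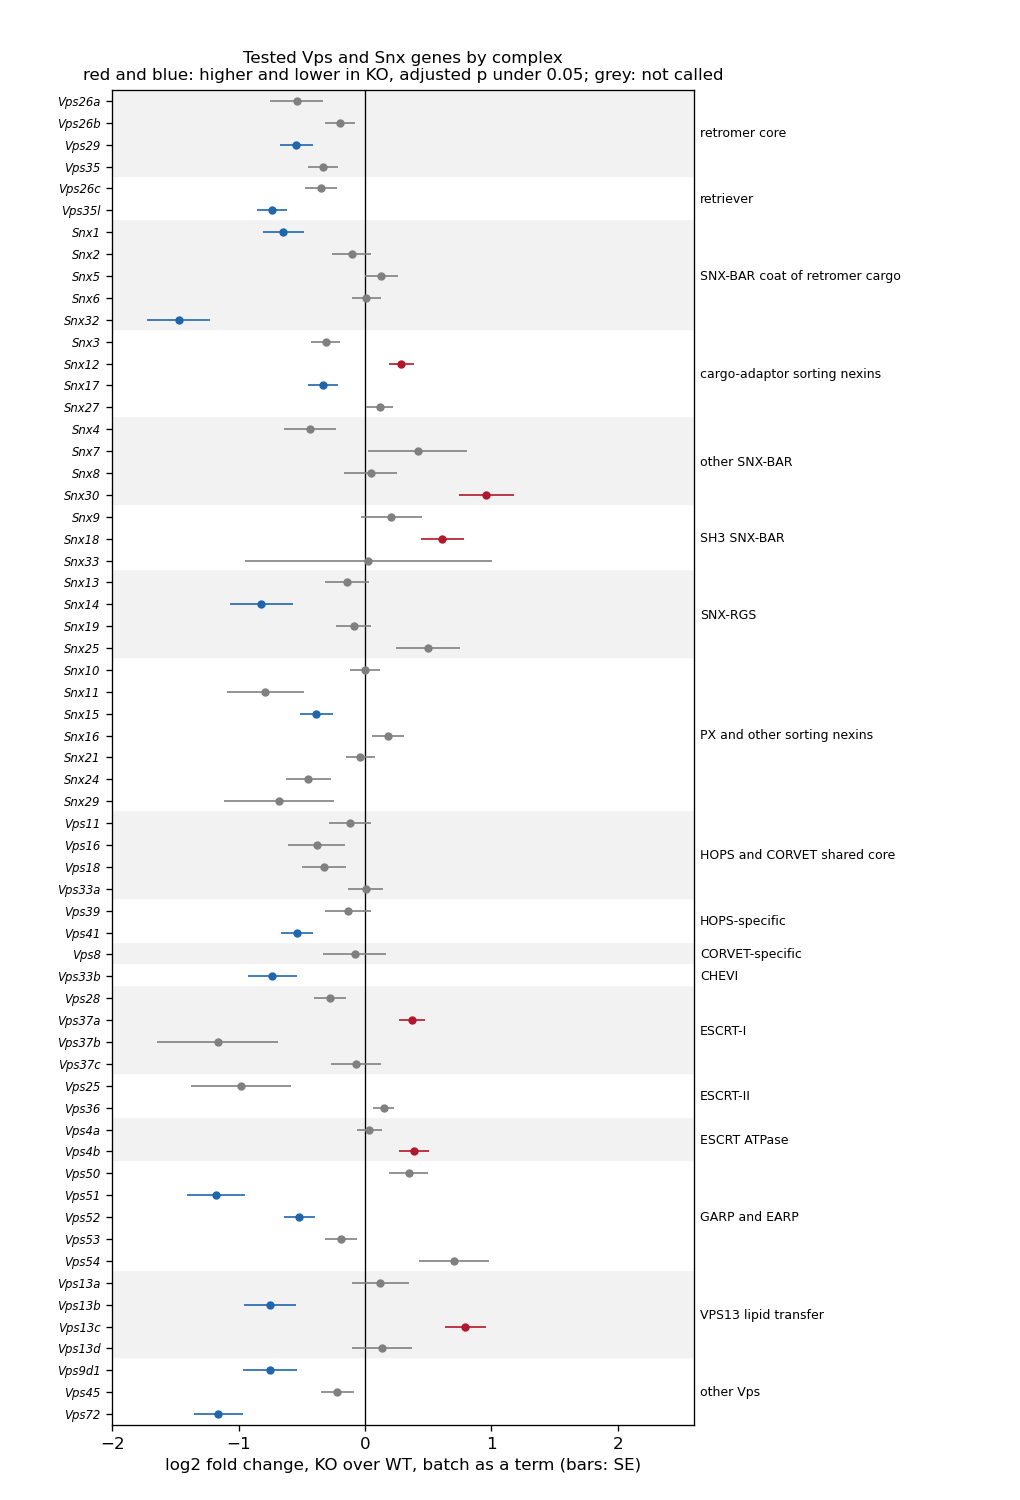
Log2 fold change (x axis) of the 61 tested Vps and Snx genes (rows, grouped by complex), KO over WT, with batch as a term; bars are standard errors. Red marks the 6 genes higher in KO, blue the 14 lower and grey the 41 that did not pass. Both colours occur among the sorting nexins, and the retromer and retriever rows all lie left of 0.

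The size of these differences moved with single libraries. Without KO M456, the only KO library of batch 3, 0 genes were higher and 3 lower (edgeR adjusted p; Vps35l, Snx32 and Vps72), and without WT M379, the only WT library of batch 1, 1 was higher (Vps13c) and 2 lower (Vps35l and Vps72). Vps35l and Vps72 were called lower in both cases. The counts over all genes tested fell too, from 1451 higher and 1788 lower in the main fit. They were 63 and 269 without KO M456, and 305 and 213 without WT M379. With the library total as a further term 0 of the 20 passed, and likewise with a purity score built from the markers above (lowest adjusted p = 0.25 and 0.31). In both fits 0 of all 13375 genes tested passed. The direction stayed as given for all 20 in both fits, with an unadjusted p under 0.05 for 10 genes with the library total and for 8 with the purity score. These 20 had been picked by the main fit on the same libraries. Of all 13375 genes, 1814 and 1567 had an unadjusted edgeR p under 0.05 in the 2 fits. The part of depth and of other cell types in these differences beyond that was not tested. Among the 5 WT libraries of batch 3, the shallowest, WT M476, was the lowest in 6 and the highest in 3 of the 14 lower genes, and the lowest in 4 and the highest in 0 of the 6 higher genes. Without WT M476 7 genes were higher and 21 lower, and of all 13220 genes tested 2033 were higher and 2005 lower.

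Batch 2 differed from the others in size. Taken within batches 1, 2 and 3, the median log2 ratio of KO over WT was -0.89, -0.24 and -0.76 for the 14 lower genes and 0.60, 0.30 and 0.59 for the 6 higher genes. KO M390, the KO library of batch 2, was the highest KO library in 12 of the 14 lower genes. It was also the deepest KO library, with 4199299 reads in genes, against 3399746, 3350970 and 2583227 in KO F371, M374 and M456. Its purity score was 3.61, against 3.20, 2.41 and 2.17 in the same libraries. WT M386, also of batch 2, had 4342158 reads and a score of 3.82. Batch, depth and purity of KO M390 cannot be told apart, since batch 2 holds 1 KO library. Which of them goes with the smaller batch 2 ratios was not tested. All 6 higher genes and 11 of the 14 lower genes had the same sign in all 3 batches, and the exceptions, Vps29, Snx14 and Vps9d1, had batch 2 ratios of 0.02, 0.09 and 0.04. No batch was tested alone, since each holds a group with 1 library.

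**Figure D2:**
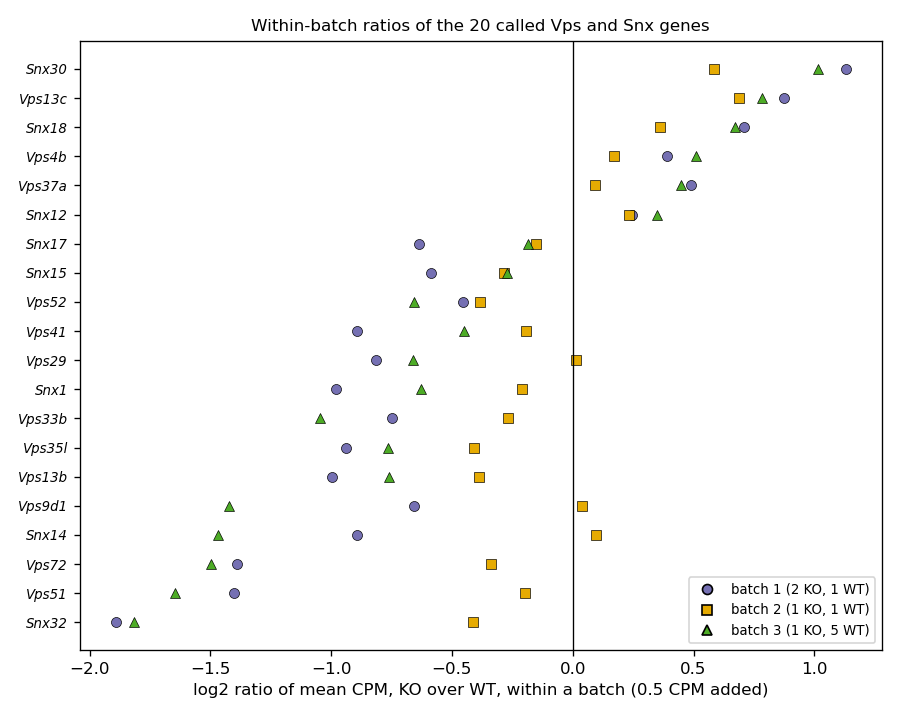
Log2 ratio of mean CPM, KO over WT (x axis, 0.5 CPM added), within batch 1 (circles), batch 2 (squares) and batch 3 (triangles) for the 20 called genes (rows). The batch 2 squares lie nearest 0 in 13 of the 14 lower genes and in all 6 higher genes.

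Retromer is built from Vps35, the scaffold, Vps29, which binds its far end, and Vps26a or Vps26b, arrestin-like subunits at the other end. Vps29 was the retromer gene that passed, and it fell in KO libraries. It had 147, 165, 254 and 128 CPM in KO F371, M374, M390 and M456, against 190, 208 and 275 CPM as the lowest, median and highest of the 7 WT libraries. The 3 KO libraries of batches 1 and 3 lay below all WT libraries and KO M390 lay among them. The log2 change was -0.54 ± 0.13 (SE, edgeR adjusted p = 0.00873), and Vps29 (ENSMUSG00000029462) overlaps Fam216a over 401 bases.

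The other 3 retromer genes did not pass. Vps35 averaged 139 CPM ± 19.6 in KO and 165 CPM ± 16.9 in WT libraries (SD, n = 4 and 7), with a log2 fold change of -0.33 ± 0.12 (adjusted p = 0.054, edgeR). Vps26a had a log2 fold change of -0.54 ± 0.21 (0.073), with 36.1 to 48.7 CPM in KO libraries and 28.4 to 72.5 CPM in WT libraries, which contain the whole KO range. Vps26b had -0.20 ± 0.12 (0.23). All 4 genes had a negative fold change, and 1 of 4 passed.

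Retriever is a related complex in which Vps35l and Vps26c take the places of Vps35 and its Vps26 partner and Vps29 is shared. Vps35l (ENSMUSG00000030982, chromosome 7, 118740178 to 118841491 in GRCm38) fell in KO libraries. It had 75.7, 80.5, 125 and 83.9 CPM in KO F371, M374, M390 and M456, against 133, 144 and 166 CPM (lowest, median, highest) in WT libraries. Every KO library lay below every WT library. The log2 change was -0.73 ± 0.12 (SE, edgeR adjusted p = 0.00226), with within-batch ratios of -0.94, -0.41 and -0.76. Vps26c averaged 118 CPM ± 18.1 in KO and 137 CPM ± 15.9 in WT libraries, with a log2 fold change of -0.35 ± 0.13 that did not pass (0.058). Over the 6 retromer and retriever genes 0 were higher and 2 lower (33.3% called, against 24.2% of all genes tested), with a median log2 fold change of -0.44.

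**Figure D3:**
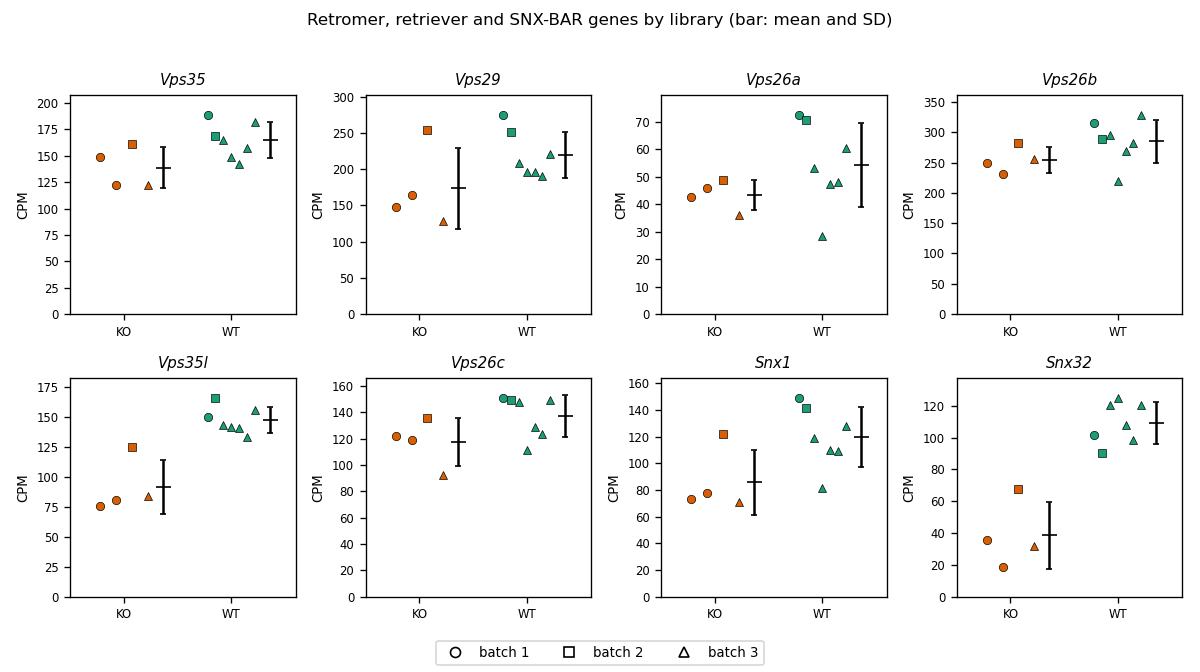
CPM (y axis, from 0) of 8 retromer, retriever and SNX-BAR genes in each KO and WT library, with symbols by batch and bars for the mean and SD (n = 4 and 7). In Vps35l and Snx32 the KO points lie below all WT points; in the other 6 genes the groups overlap.

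The tubules that leave endosomes with retromer-sorted cargo are coated by sorting nexins with a BAR domain, Snx1 or Snx2 paired with Snx5, Snx6 or Snx32, a combination also called ESCPE-1. Of these 5 genes 2 fell, Snx1 and Snx32 (40.0% called, against 24.2% of all genes tested). Snx32 (ENSMUSG00000056185, chromosome 19, 5495274 to 5510708), a form enriched in brain, had the most negative log2 fold change of the 61 genes. It had 35.7, 18.4, 67.8 and 32.1 CPM in KO F371, M374, M390 and M456, against 90.4, 108 and 125 CPM (lowest, median, highest) in WT libraries. All 4 KO libraries lay below all 7 WT libraries, with KO M390 nearest to them. The log2 change was -1.47 ± 0.25 (SE, edgeR adjusted p = 0.00243), and the within-batch ratios were -1.89, -0.41 and -1.82. Its span overlaps that of 1700020D05Rik over 1021 bases.

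Snx1 had 73.1, 77.8, 122 and 70.7 CPM in KO F371, M374, M390 and M456, against 81.2, 119 and 149 CPM in WT libraries (lowest, median, highest). KO M390 lay inside the WT range and the other 3 KO libraries below it. Its log2 change was -0.65 ± 0.16 (SE, edgeR adjusted p = 0.011). Snx2, which can stand in for Snx1, averaged 113 CPM ± 14.2 in KO and 107 CPM ± 24.7 in WT libraries, with a batch-adjusted log2 fold change of -0.11 ± 0.15 (0.64). Snx5 and Snx6 had 0.13 ± 0.13 (0.49) and 0.01 ± 0.12 (0.96).

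Among sorting nexins that bind cargo tails, Snx12 rose and Snx17 fell. Snx12 (ENSMUSG00000046032, X chromosome), a close relative of Snx3, had 161, 163, 164 and 166 CPM in KO F371, M374, M390 and M456, against 122, 132 and 139 CPM in WT libraries (lowest, median, highest). The 4 KO values had an SD of 1.96 CPM and lay above all WT values, and the log2 change was 0.29 ± 0.10 (SE, edgeR adjusted p = 0.045). Reads of Slc7a3, which overlaps Snx12 over 1086 bases, could be among them. Snx17, which passes receptors of the LDL receptor family to retriever, had 130, 120, 154 and 150 CPM in the same KO libraries against 146, 175 and 195 CPM in WT libraries, with overlap between the groups and a log2 fold change of -0.33 ± 0.12 (0.048), which was -0.15 without WT M379. Snx3, which recruits retromer for the Wnt carrier Wls, averaged 144 CPM ± 27.6 in KO and 172 CPM ± 12.9 in WT libraries and did not pass (-0.31 ± 0.12, 0.061). Snx27, whose PDZ domain returns glutamate and other receptors to the surface, averaged 332 CPM ± 41.4 in KO and 304 CPM ± 29.8 in WT libraries (0.12 ± 0.11, 0.44). Snx31 had 0 reads in KO libraries and 1 read each in WT F473 and WT M479.

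Of the remaining sorting nexins with a BAR domain, 2 rose and 0 fell. They were 1 of the 3 with an SH3 domain and 1 of the 4 others. Among all genes tested 10.8% were higher and 24.2% were called in either direction. Sets of 3 and 4 genes are too small to be set apart from these shares. Snx30, a partner of Snx4 in recycling and autophagy, had 63.8, 56.4, 29.1 and 78.3 CPM in KO F371, M374, M390 and M456, against 19.2, 33.9 and 48.0 CPM in WT libraries (lowest, median, highest). KO M390 lay inside the WT range but above WT M386, the WT library of its batch, and the log2 change was 0.96 ± 0.22 (SE, edgeR adjusted p = 0.00711). Snx18, an SH3 protein of endocytosis and autophagy, had 69.6, 75.1, 58.4 and 57.0 CPM in the same KO libraries against 31.6, 37.4 and 45.3 CPM in WT libraries, with no overlap between the groups and a log2 fold change of 0.61 ± 0.17 (0.019). Its relative Snx9 had 0.21 ± 0.24 (0.55). Snx4 averaged 78.7 CPM ± 24.9 in KO and 97.7 CPM ± 24.0 in WT libraries (-0.43 ± 0.21, 0.13), Snx7 had 0.42 ± 0.39 (0.46) and Snx8 0.05 ± 0.21 (0.90). Snx33 was counted at 7.63 CPM in KO M456 and at 0 to 0.297 CPM in the other KO libraries, against 0 to 4.56 CPM in WT libraries (0.03 ± 0.98, 0.99).

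The RGS-domain sorting nexins include Snx14, which tethers lipid droplets to the endoplasmic reticulum and whose human form is mutated in a recessive cerebellar ataxia. Snx14 fell in KO libraries, with 38.6, 43.4, 76.1 and 18.9 CPM in KO F371, M374, M390 and M456, against 42.5, 53.5 and 76.6 CPM in WT libraries (lowest, median, highest). Values of the groups overlapped, since KO M390 was near the highest WT library and KO M374 just above the lowest. The log2 change was -0.82 ± 0.25 (SE, edgeR adjusted p = 0.027), with within-batch ratios of -0.89, 0.09 and -1.47, and was -0.48 without KO M456. The other 3 genes of the family, Snx13, Snx19 and Snx25, had -0.14 ± 0.18, -0.09 ± 0.14 and 0.50 ± 0.26 and did not pass.

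Of 9 sorting nexins that have a PX domain and no BAR domain, 1 of the 7 tested passed (14.3%, against 24.2% of all genes tested). Snx15, which carries a domain that binds ESCRT proteins, fell, with 84.4, 64.4, 65.4 and 92.8 CPM in KO F371, M374, M390 and M456, against 79.8, 110 and 122 CPM in WT libraries (lowest, median, highest). Of the WT libraries only WT M386 lay among the KO values, and the log2 change was -0.38 ± 0.13 (SE, edgeR adjusted p = 0.047). Snx11 had -0.79 ± 0.30 (0.069) and Snx29 -0.68 ± 0.44 (0.26), with 3.78 to 4.45 CPM in KO and 5.32 to 10.1 CPM in WT libraries. Snx24 had -0.45 ± 0.18 (0.078), Snx16 0.18 ± 0.13 (0.31), Snx21 -0.04 ± 0.11 (0.84) and Snx10, which serves the acidification of lysosomes, 0.00 ± 0.12 (0.99). Snx20 and Snx22 were under the filter on low counts, with at most 4 and 8 reads in any library.

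HOPS and CORVET share a core of Vps11, Vps16, Vps18 and Vps33a. CORVET adds Vps8 and acts on early endosomes with Rab5, while HOPS adds Vps39 and Vps41 and acts on late endosomes and lysosomes with Rab7. Vps41 was the gene of the 7 that passed (14.3%, against 24.2% of all genes tested), and it fell. It had 127, 129, 205 and 157 CPM in KO F371, M374, M390 and M456, against 187, 228 and 245 CPM in WT libraries (lowest, median, highest). KO M390 lay above the lowest WT library, WT M476, and the other 3 KO libraries lay below all WT libraries. The log2 change was -0.54 ± 0.12 (SE, edgeR adjusted p = 0.00786), with within-batch ratios of -0.89, -0.19 and -0.45, and was -0.33 without WT M379.

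The shared core did not pass in any subunit. Vps11 averaged 81.8 CPM ± 3.48 in KO and 91.3 CPM ± 16.8 in WT libraries, with a log2 fold change of -0.12 ± 0.17 (adjusted p = 0.64, edgeR). Vps16 and Vps18 had -0.38 ± 0.22 (0.22) and -0.33 ± 0.17 (0.18), and Vps33a 0.01 ± 0.14 (0.98). Vps39 averaged 86.1 CPM ± 25.4 in KO and 94.1 CPM ± 8.98 in WT libraries (-0.14 ± 0.18, 0.62), and Vps8 33.0 CPM ± 8.70 in KO and 35.6 CPM ± 5.76 in WT libraries (-0.08 ± 0.25, 0.84). The median over the 7 genes was -0.14. The promoter windows of Vps16 and Vps33a printed above hold TCACGTGA, and neither gene passed.

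Vps33b is the relative of Vps33a that works with Vipas39 outside HOPS, in the complex called CHEVI. It fell in KO libraries, with 37.7, 34.7, 73.0 and 25.7 CPM in KO F371, M374, M390 and M456, against 40.9, 56.4 and 88.1 CPM in WT libraries (lowest, median, highest). KO M390 lay within the WT range and the other 3 KO libraries below it, and the log2 change was -0.73 ± 0.19 (SE, edgeR adjusted p = 0.015). Its partner gene Vipas39 fell as well, by 0.88 ± 0.20 on the log2 scale (edgeR adjusted p = 0.00809), with 27.6 to 64.7 CPM in KO and 72.5 to 117 CPM in WT libraries.

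The rule found 9 ESCRT genes, of which 8 were tested, 2 rose and 0 fell. This called share was close to the 24.2% of all genes tested that were called in either direction. Vps37a, an ESCRT-I subunit, had 297, 262, 254 and 259 CPM in KO F371, M374, M390 and M456, against 177, 194 and 238 CPM in WT libraries (lowest, median, highest). All KO values lay above all WT values, and the log2 change was 0.37 ± 0.10 (SE, edgeR adjusted p = 0.015). Vps37a overlaps Cnot7 and Mtmr7 over 4106 and 2936 bases. Vps4b, an ATPase that takes ESCRT-III filaments apart, had 146, 151, 126 and 119 CPM in the same KO libraries against 74.2, 87.7 and 113 CPM in WT libraries, again with no overlap, and a log2 fold change of 0.39 ± 0.12 (0.029). Its relative Vps4a averaged 182 CPM ± 20.5 in KO and 187 CPM ± 11.2 in WT libraries (0.03 ± 0.10, 0.83).

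The other ESCRT-I and ESCRT-II genes did not pass. Vps28 and Vps37c had -0.28 ± 0.13 (adjusted p = 0.11, edgeR) and -0.07 ± 0.20 (0.82). Vps37b was low, with 3.48, 1.19, 1.18 and 15.7 CPM in KO F371, M374, M390 and M456 against 6.94, 15.3 and 21.8 CPM in WT libraries, and had -1.17 ± 0.48 (0.083). In ESCRT-II, Vps36 averaged 246 CPM ± 15.5 in KO and 205 CPM ± 20.2 in WT libraries (0.15 ± 0.08, 0.21), and Vps25 5.62 CPM ± 1.97 in KO and 9.76 CPM ± 1.39 in WT libraries (-0.98 ± 0.40, 0.080). Vps37d was under the filter, with 0 to 19 reads per KO library and 0 to 9 per WT library.

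**Figure D4:**
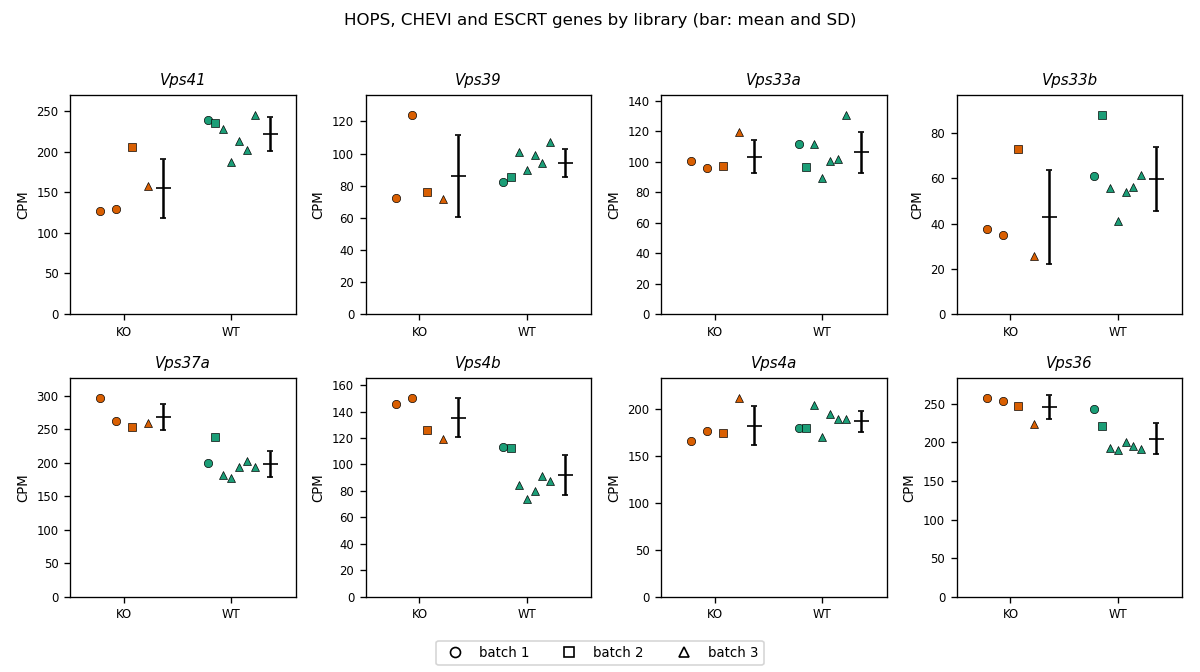
CPM (y axis, from 0) of 8 HOPS, CHEVI and ESCRT genes in each KO and WT library, with symbols by batch and bars for the mean and SD (n = 4 and 7). The KO points of Vps37a and Vps4b lie above all WT points, and KO M390, the batch 2 square, lies among the WT points in Vps41 and Vps33b.

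GARP tethers vesicles from endosomes at the Golgi and consists of Vps51, Vps52, Vps53 and Vps54, while EARP has Vps50 in place of Vps54 and serves recycling endosomes. Of the 5 genes 2 fell (40.0% called, against 24.2% of all genes tested), both from the shared part. Vps51 (ENSMUSG00000024797, chromosome 19, 6067842 to 6077187) had 42.4, 28.8, 62.1 and 35.7 CPM in KO F371, M374, M390 and M456, against 71.4, 105 and 126 CPM in WT libraries (lowest, median, highest). Every KO library lay below every WT library, and the log2 change was -1.18 ± 0.23 (SE, edgeR adjusted p = 0.00369). Vps51 overlaps Tm7sf2 over 9 bases. The batch 2 ratio of -0.20 was smaller than those of batches 1 and 3, at -1.40 and -1.65. Vps52 had 86.8, 70.7, 67.8 and 92.0 CPM in the same KO libraries against 88.5, 142 and 154 CPM in WT libraries, with overlap only between KO M456 and WT M386, and a log2 fold change of -0.52 ± 0.12 (0.00834).

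The subunits that separate GARP from EARP had positive fold changes and did not pass. Vps54, mutated in the wobbler mouse, a model of motor neuron loss, had 33.7, 76.3, 39.9 and 35.7 CPM in KO F371, M374, M390 and M456 against 15.6, 24.8 and 31.1 CPM in WT libraries. No KO value overlapped the WT values, but the log2 fold change of 0.70 ± 0.28 missed the threshold (edgeR adjusted p = 0.075). Vps50 averaged 116 CPM ± 21.1 in KO and 82.5 CPM ± 14.3 in WT libraries (0.35 ± 0.15, 0.11), and Vps53, shared by both complexes, 145 CPM ± 11.6 in KO and 170 CPM ± 22.6 in WT libraries (-0.19 ± 0.13, 0.28). The log2 ratio of Vps54 to Vps51 CPM within a library was -0.33, 1.39, -0.63 and 0.00 in KO F371, M374, M390 and M456, and -2.71, -2.08 and -1.26 as the lowest, median and highest of the WT libraries (0.5 CPM added). It is 1 of 6 pairs looked at, all picked after their values were seen and given no test. KO and WT libraries did not overlap in Snx12 over Snx3 either (-0.14 to 0.49 in KO, -0.49 to -0.18 in WT), and overlapped in the other 4, among them Vps4b over Vps4a (-0.83 to -0.18 in KO, -1.27 to -0.67 in WT) and Vps33b over Vps33a (-2.19 to -0.41 in KO, -1.11 to -0.13 in WT).

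The VPS13 proteins are long bridges that move lipids between membranes, and human mutations in each of the 4 genes cause neurological disease. Vps13c, which links the endoplasmic reticulum to late endosomes and lysosomes, rose and Vps13b, a Golgi protein, fell. Vps13c had 76.3, 74.5, 61.4 and 119 CPM in KO F371, M374, M390 and M456, against 37.9, 59.6 and 88.1 CPM in WT libraries (lowest, median, highest). Although the groups overlapped as a whole, the KO libraries were above the WT mean of their own batch by log2 ratios of 0.87, 0.69 and 0.78, and the log2 change was 0.79 ± 0.16 (SE, edgeR adjusted p = 0.00457). Vps13b had 14.8, 17.8, 37.3 and 26.1 CPM in the same KO libraries against 33.0, 47.2 and 51.2 CPM in WT libraries, with KO M390 inside the WT range, and a log2 fold change of -0.75 ± 0.21 (0.017).

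Within a library, the log2 ratio of Vps13c to Vps13b CPM was 2.33, 2.03, 0.71 and 2.17 in KO F371, M374, M390 and M456, against -0.37, 0.51 and 0.90 in WT libraries (lowest, median, highest; 0.5 CPM added, another of the 6 pairs). KO M390 lay inside the WT range and the other 3 KO libraries above it. Vps13a and Vps13d had log2 fold changes of 0.12 ± 0.23 (edgeR adjusted p = 0.73) and 0.13 ± 0.24 (0.71). Reads inside the long span of Vps13d can also come from Dhrs3, which overlaps it over 35676 bases.

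**Figure D5:**
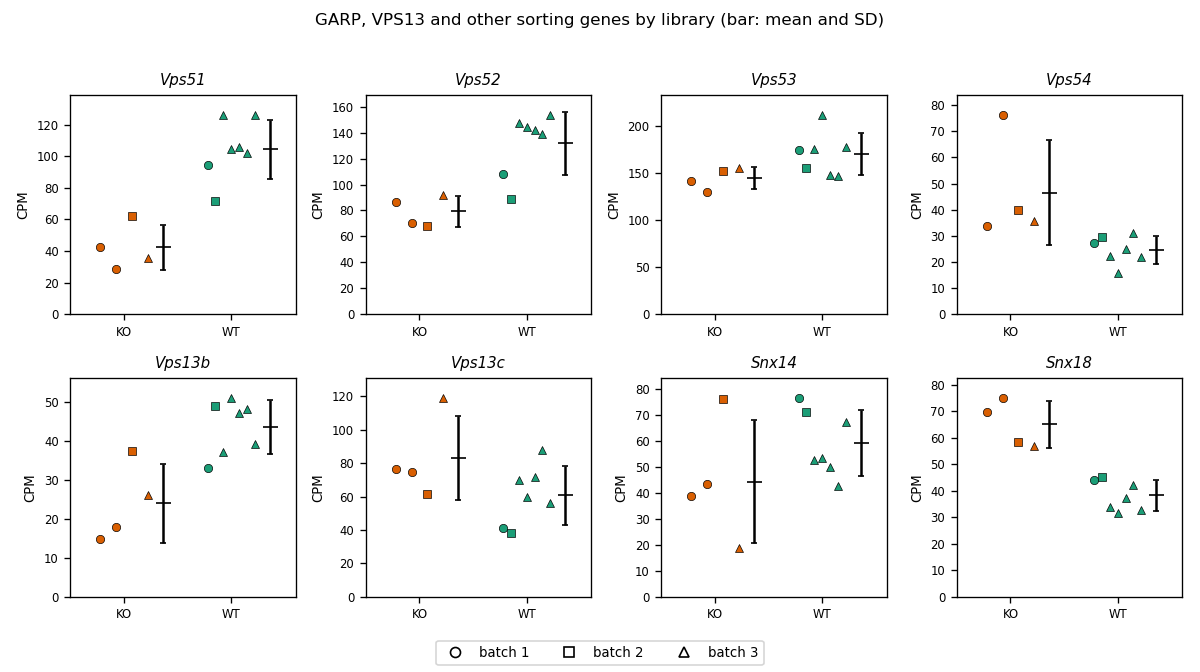
CPM (y axis, from 0) of 8 GARP, VPS13 and sorting nexin genes in each KO and WT library, with symbols by batch and bars for the mean and SD (n = 4 and 7). KO points lie below all WT points in Vps51 and above all WT points in Vps54 and Snx18; Vps13b and Vps13c overlap between groups and differ in opposite directions.

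The last 3 Vps genes belong to none of these complexes. Vps72 (ENSMUSG00000008958, chromosome 3, 95111042 to 95123051) carries the name by homology but encodes a histone chaperone of chromatin remodelling complexes, not a sorting protein. It had 34.0, 34.7, 55.3 and 34.5 CPM in KO F371, M374, M390 and M456, against 70.0, 94.8 and 115 CPM in WT libraries (lowest, median, highest). Every KO library lay below every WT library, and the log2 change was -1.16 ± 0.20 (SE, edgeR adjusted p = 0.0024). Vps72 overlaps Tmod4 over 253 bases, and Vps9d1 overlaps Zfp276 over 28. Vps9d1, which has the domain of Rab5 exchange factors, had 42.7, 47.8, 65.7 and 37.7 CPM in the same KO libraries against 64.0, 99.8 and 115 CPM in WT libraries and fell by 0.75 ± 0.21 on the log2 scale (0.020), with a batch 2 ratio of 0.04 and a log2 fold change of -0.36 without KO M456. Vps45, a Sec1/Munc18 protein of early endosome fusion, had -0.22 ± 0.13 (0.24).

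Genes of the same complexes that are not named Vps or Snx were counted from a list of 79, of which 74 were tested. Of these 8 rose and 10 fell (edgeR adjusted p under 0.05), a share of 24.3% against the 24.2% of all genes. Without KO M456 the counts were 0 and 1, without WT M379 also 0 and 1, and without WT M476 13 and 15. The counts over all genes tested moved in the same directions, to 63 and 269, 305 and 213, and 2033 and 2005, in that order. ESCRT held 9 of these 18 genes, with 6 of its 20 tested genes higher and 3 lower. These shares, 30.0% and 15.0%, stand against 10.8% and 13.4% of all genes tested. Chmp4b, which forms the main ESCRT-III filament, had 131, 134, 80.3 and 190 CPM in KO F371, M374, M390 and M456, against 50.4, 66.0 and 100 CPM in WT libraries (lowest, median, highest), with overlap only through KO M390 and a log2 fold change of 1.03 ± 0.22 (SE, edgeR adjusted p = 0.00544). Snf8, the ESCRT-II partner of Vps25 and Vps36, had 70.9 to 105 CPM in KO and 39.1 to 69.6 CPM in WT libraries (0.75 ± 0.19, 0.012). Chmp6, which starts the filament on ESCRT-II, had 54.6, 48.7, 68.3 and 37.7 CPM in the same KO libraries against 87.8, 117 and 125 CPM in WT libraries (-1.13 ± 0.19, 0.00226). Vta1, the cofactor of Vps4, averaged 84.6 CPM ± 28.9 in KO and 119 CPM ± 12.3 in WT libraries (-0.62 ± 0.15, 0.00858). Without KO M456 the log2 fold changes of Chmp4b and Snf8 were 0.66 and 0.47, and without WT M379 that of Vta1 was -0.39.

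Among 20 tested partners of retromer and retriever, 1 rose and 3 fell. This called share was below the 24.2% of all genes tested. Washc4, a subunit of the WASH complex that builds actin on endosomes, had 132 to 186 CPM in KO and 96.8 to 132 CPM in WT libraries and a log2 fold change of 0.49 ± 0.13 (edgeR adjusted p = 0.016). The genes that fell, Commd4, Commd9 and Commd10, encode subunits of the Commander assembly that holds retriever, at -0.73 ± 0.20 (0.018), -0.49 ± 0.16 (0.032) and -0.52 ± 0.17 (0.036). Commd4 had -0.49 without KO M456, and Commd9 and Commd10 had -0.30 and -0.26 without WT M379. In all 3 the values of KO M390 lay inside the WT range. Commd1, Commd2, Commd3, Commd5, Commd6, Commd7 and Commd8 did not pass. Commd8 had 219 to 305 CPM in KO and 118 to 223 CPM in WT libraries. Of 17 tested HOPS and CORVET partners 0 rose and 2 fell (11.8% called, against 24.2% of all genes tested). These were Vipas39 and Plekhm2, a lysosome adaptor of kinesin (-0.55 ± 0.17, 0.030).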

How the data were processed

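The submitters' processing notes name the aligner STAR, the read counter HTSeq and the build GRCm38; the sources used here give no versions, options or strand setting. The deposited files hold raw counts for 55421 genes in each of 11 libraries; 5 summary lines were left out. Libraries were grouped by the genotype label, and nothing beyond the animal tags shows how samples were replicated, so p-values measure the spread between these libraries. Even the most similar libraries differed beyond counting noise (chi-square divided by its degrees of freedom, 2.46), so none was treated as a copy.

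The main test was edgeR 4.0.16 (R 4.3.3), with filterByExpr (13375 genes kept), TMM scaling and a robust quasi-likelihood fit of batch and genotype with 7 residual degrees of freedom, on all libraries; p-values are two-sided and Benjamini-Hochberg adjusted over all genes, threshold 0.05. The procedure was tested on simulated data. CPM values are TMM-scaled. Group means ignore batch and need not match the fitted changes. The standard error is the fold change over the root of F. For depth, a floor of 3 counts corresponds to 1.16 CPM in the shallowest library and 0.583 CPM in the deepest, counting error only. The reference held no transcript lengths, so a planned comparison of levels between genes per length was not made. CPM values are compared within a gene, apart from the log2 ratios of gene pairs within a library. Without strand, reads of overlapping genes cannot be assigned with certainty; 7 called genes overlap a protein-coding gene (Vps29, Snx32, Snx12, Vps37a, Vps51, Vps9d1 and Vps72). Positions are RefSeq's for GRCm38.p6, where all 65 genes matched by symbol.

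The genes and lists were chosen with earlier results of these data known. The rule for named genes took every called gene, every retromer, retriever, HOPS, CORVET and ESCRT subunit, the 5 uncalled genes with the largest changes and up to 4 called partners per list by smallest p; its clause on levels per length could not be used. Remaining Vps and Snx genes, and uncalled partners, were named in addition, after their values were seen. Alternatives were no batch term, DESeq2 1.42.0 (Wald test or size factors), library totals, 2 filters, limma 3.58.1 (voom, with batch fixed or random), each library or batch 2 left out, animals tagged M, thinning, and library total or purity as a term. The purity score is the mean log2 CPM of Purkinje markers minus that of granule cell, astrocyte and oligodendrocyte markers.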

Additional observations from a re-analysis of the deposited data

Results flagged for a closer look

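Each of the 61 tested Vps and Snx genes, 13 called partners and 3 uncalled partners was screened in each group for a single library far from the others. Of 154 groups screened 18 were picked out. Chance alone picks about 1 in 20 only where the libraries of a group are alike apart from chance. Here both groups span batches and depths, with 1 library of each group in batch 2, so the count cannot be read against this rate. KO M390, of batch 2, stood above the other KO libraries in 5 genes: Vps35l (125 CPM, the others 75.7 to 83.9), Snx1 (122 CPM, the others 70.7 to 77.8), Vps72 (55.3 CPM, the others 34.0 to 34.7), Vta1 (128 CPM, the others 67.4 to 71.9) and Vldlr (410 CPM, the others 278 to 293). These are genes that were lower in KO. KO M374 stood above the other KO libraries in Vps39 (124 CPM, the others 71.5 to 76.3), Vps54 (76.3 CPM, the others 33.7 to 39.9) and Igf2r (99.2 CPM, the others 61.4 to 65.9), and KO M456 in Vps37b (15.7 CPM, the others 1.18 to 3.48) and Snx33 (7.63 CPM, the others 0 to 0.297).

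In the WT group, WT M386 of batch 2 was the lowest library in Snx15 (79.8 CPM, the others 105 to 122) and Chmp6 (87.8 CPM, the others 113 to 125) and the highest in Vps37a (238 CPM, the others 177 to 203), Igf2r (65.7 CPM, the others 32.3 to 45.0) and Pik3c3 (113 CPM, the others 63.5 to 83.4). WT M476, the shallowest WT library, was the lowest in Vldlr (319 CPM, the others up to 415), Becn1 (74.0 CPM, the others 135 to 179) and Snx13 (121 CPM, the others 208 to 253).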

How the results depend on the processing

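All 20 called Vps and Snx genes had the same direction in all 24 alternatives, 11 of which leave out 1 library. The calls were less stable. Snx15 passed in 5 of the 24 alternatives, Snx17 in 8, Snx12 in 9, and Snx14 and Vps4b in 15. The most was 22, for Vps35l and Vps72. The main counts were 6 higher and 14 lower in KO among the 61 tested genes, and 8 and 10 among partners. With the library total or the purity score as a term all 4 counts were 0, and so were the counts over all 13375 genes (edgeR). Of all genes, 1814 and 1567 had an unadjusted edgeR p under 0.05. Without a filter 3 genes were higher. In animals tagged M only 2 were higher and 9 lower, and 5 partners were lower; by limma-voom 6 partners were lower. Leaving out 1 library gave 0 to 7 genes higher, 2 to 21 lower, 0 to 13 partners higher and 1 to 15 lower, the lowest without KO M456 or WT M379 and the highest without WT M476. Over all genes tested the counts were 63 and 269 without KO M456, 305 and 213 without WT M379, and 2033 and 2005 without WT M476. The cause was not tested. Within-batch medians moved by less than the spread between batches at 0.1 or 1 CPM pseudocount.

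Signs turned in 21 of the 41 uncalled Vps and Snx genes, in Igf2r and in Sorl1. With the library total as a term Snx11, Vps11, Vps16, Vps18, Vps39, Vps37c and Vps4a had log2 fold changes of 0.030, 0.12, 0.19, 0.15, 0.12, 0.11 and -0.041. Vps33a had -0.040 with no batch term, -0.021 given the purity score, -0.0069 without a filter, -0.0067 by limma-voom and -0.031 with batch as random. Vps4a had -0.037 with batch left out of the model, -0.088 given the purity score and -0.015 with batch as random. Without batch 2, Vps8 and Vps37c had 0.20 and 0.11, and Vps37c 0.021 by limma-voom. With 1 library left out the ranges were -0.69 to 0.011 for Vps16, -0.11 to 0.12 for Vps33a, -0.32 to 0.076 for Vps39, -0.40 to 0.20 for Vps8, -0.36 to 0.11 for Vps37c and -0.060 to 0.10 for Vps4a. The called partner Igf2r had -0.0071 with the purity score. Among the remaining sorting nexins, the library total as a term gave -0.13 for Snx6, -0.19 for Snx8, -2.64 for Snx33, 0.27 for Snx13, 0.059 for Snx19, 0.13 for Snx10 and 0.033 for Snx24, and -0.091 for Vps13a. Given the purity score, Snx8 had -0.56, Snx33 -0.10, Snx19 0.042, Snx21 0.14, Vps53 0.023, Vps13a -0.23 and Vps13d -0.053. With batch left out of the model, Snx2 had 0.081, Snx8 -0.35, Snx33 -0.56, Snx10 0.16 and Sorl1 -0.00093. With batch as random, Snx2 had 0.0056, Snx8 -0.32, Snx33 -1.04 and Snx10 0.089, and by limma-voom Snx6 had -0.0018. Snx33 also had -0.054 without a filter, -0.0018 with at least 1 CPM in 4 libraries and -0.042 by DESeq2. Snx10 had 0.012 with DESeq2 size factors, 0.012 with at least 1 CPM in 4 libraries, 0.0094 by DESeq2, 0.0091 without batch 2, 0.062 in animals tagged M and 0.017 after thinning. Snx21 had 0.011 without batch 2. With 1 library left out, the ranges were -0.22 to 0.038 for Snx2, -0.038 to 0.072 for Snx6, -0.092 to 0.27 for Snx8, -2.48 to 1.11 for Snx33, -0.026 to 0.057 for Snx10, -0.066 to 0.025 for Snx21, -0.13 to 0.33 for Vps13a and -0.16 to 0.35 for Vps13d. No paired analysis was possible because the labels give each library its own animal tag and no number shared between groups. Apart from the log2 ratios of gene pairs within a library, levels were not compared between genes, per length or without length. Vps25, Vps37b, Snx29 and Snx33 had few reads in both groups, which limits their precision.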

Other observations

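Of 11 tested genes of receptors that travel through these compartments, 1 rose and 1 fell in KO libraries (edgeR adjusted p under 0.05), a share of 18.2% against 24.2% of all genes tested. Igf2r, which carries lysosomal enzymes and is returned by the retromer-associated sorting nexins, had 62.7, 99.2, 61.4 and 65.9 CPM in KO F371, M374, M390 and M456, against 32.3, 37.4 and 65.7 CPM in WT libraries (lowest, median, highest). Its log2 change was 0.61 ± 0.21 (SE, edgeR adjusted p = 0.044). Adding the purity score to the model brought Igf2r to -0.0071. Vldlr, a Reelin receptor, had 293, 278, 410 and 285 CPM in the same KO libraries against 319, 397 and 415 CPM in WT libraries, a log2 fold change of -0.34 ± 0.11 (0.035). Sorl1, a sorting receptor for the amyloid precursor protein, averaged 744 CPM ± 203 in KO and 743 CPM ± 109 in WT libraries (0.19 ± 0.09, 0.14), and Sort1 182 CPM ± 46.0 in KO and 238 CPM ± 40.0 in WT libraries (-0.19 ± 0.11, 0.23).

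The class III phosphoinositide 3-kinase makes the lipid that PX domains bind. Of its 6 tested genes 1 fell (16.7% called, against 24.2% of all genes tested), Becn1, which encodes the autophagy subunit Beclin 1. Becn1 had 56.9, 52.3, 162 and 22.9 CPM in KO F371, M374, M390 and M456, against 74.0, 147 and 179 CPM in WT libraries, and a log2 fold change of -1.47 ± 0.32 (SE, edgeR adjusted p = 0.00632). Its within-batch ratios were -1.70, -0.05 and -2.46, and the lowest WT library, at 74.0 CPM, was WT M476. The catalytic subunit gene Pik3c3, the mammalian Vps34, averaged 68.5 CPM ± 18.4 in KO and 82.5 CPM ± 15.0 in WT libraries (-0.36 ± 0.14, 0.076).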
